A study of Mus musculus with 27 samples.

Results

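The response to bicuculline was measured in whole cell polyadenylated RNA of wild type mouse primary cortical cells whose transcription had been blocked with triptolide. The genes described are those with an FPKM (fragments scaled to transcript length and to the mapped fragments of the library) of at least 1 in at least 3 of the 6 libraries compared, which held for 13081 of the 59489 entries in the deposited table. Each unstimulated library, numbered S1, S2 or S4, was set against the bicuculline library of the same number. The third highest of the 6 values was 1.00005 FPKM in the entry just inside this limit and 0.99971 in the entry just outside it, and a further 692 entries reached 1 FPKM in only 1 or 2 libraries.

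The cells came from embryos at day 16.5 and had been kept in culture for 14 days. Both groups received 1 µM triptolide for 3 h, and the 3 bicuculline libraries came from cells that also received 20 µM bicuculline for 1 h. The series holds 27 libraries in 9 groups, and its title and design text place its question in the remodelling of the neuronal transcriptome through retained introns. Cells without a transcription inhibitor are not analysed here, so each change below is a difference between cells that all carried triptolide. The labels give neither the order in which the agents were added nor whether an S number stands for a separate culture. P-values therefore measure a spread between libraries that may be technical. In the main fit that spread was estimated over all 18 triptolide libraries (whole cell, nuclear and cytosolic), not over the 6 whole cell ones alone. Fractions of the same S number thus counted as separate libraries.

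Bicuculline blocks GABA-A receptors, the chloride channels behind fast inhibition in the cortex, and in cultures that hold excitatory neurons this raises firing and calcium entry. The calcium signal activates kinases that act on transcription factors already present in the cell, such as CREB and SRF, and these switch on immediate early genes within minutes. Triptolide blocks the start of transcription by RNA polymerase II through the TFIIH subunit XPB and leads to loss of the polymerase, so that RNA levels under it follow decay, processing and any transcription that escapes the block.

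After bicuculline 542 genes were higher and 54 lower at an adjusted p under 0.05 (limma on log2(FPKM + 0.5) of the 18 triptolide libraries, S number as a block, Benjamini-Hochberg adjustment over all 13081 genes). These are 4.14% and 0.413% of the genes tested, and 4.56% in either direction. The changes were small. The median fold of the 542 genes was 1.21 on the FPKM + 0.5 scale, 8 of them reached 1.5-fold, and the largest was 2.11-fold. That largest rise was of Cyr61. Like Fosb and the entry GSMG0007926, also among the 8, it passed the FPKM filter only through the bicuculline libraries. The filter thus fixed the direction of these rises. Every bicuculline library lay above every unstimulated one for 441 of the 542 genes, and below for 44 of the 54. The same separation was seen in 13.4% of all genes tested upward and in 3.67% downward.

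How many genes were called depended on how the libraries were paired. Without the S number in the fit 2 genes, 0.0153%, were called (1 higher, 1 lower), while 1482 had an unadjusted p under 0.05 (1240 higher, 242 lower). With a separate block for each pair and RNA fraction 50 were called (0.382%), and with the 6 whole cell libraries alone and the block 80 (0.612%). A group of 41 genes (33 higher, 8 lower) was called in all 3 paired fits, and all 41 were also called with median-ratio scaling and with quantile normalization. Among the 41, Cyr61, Fosb and the entry GSMG0007926 passed the FPKM filter only through the bicuculline libraries. The entries GSMG0011888, GSMG0031488 and GSMG0065196 passed it only through the unstimulated ones. The filter itself fixed the direction of these genes, so their calls lend the group no support. Leaving out both libraries of S4 left 11 calls, of S1 32 and of S2 44, and leaving out 1 library left between 44 (unstimulated S4) and 367 (unstimulated S1).

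The excess of higher over lower calls moved with the scaling. The median log2 change of all 13081 genes was 0.04 on the deposited scale and -0.01 with median-ratio scaling. The share of calls that were higher fell from 90.9% to 74.8% with median-ratio scaling (220 higher, 74 lower, together 2.25% of genes) and to 72.5% with quantile normalization (227 higher, 86 lower, together 2.39%).

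**Figure D1:**
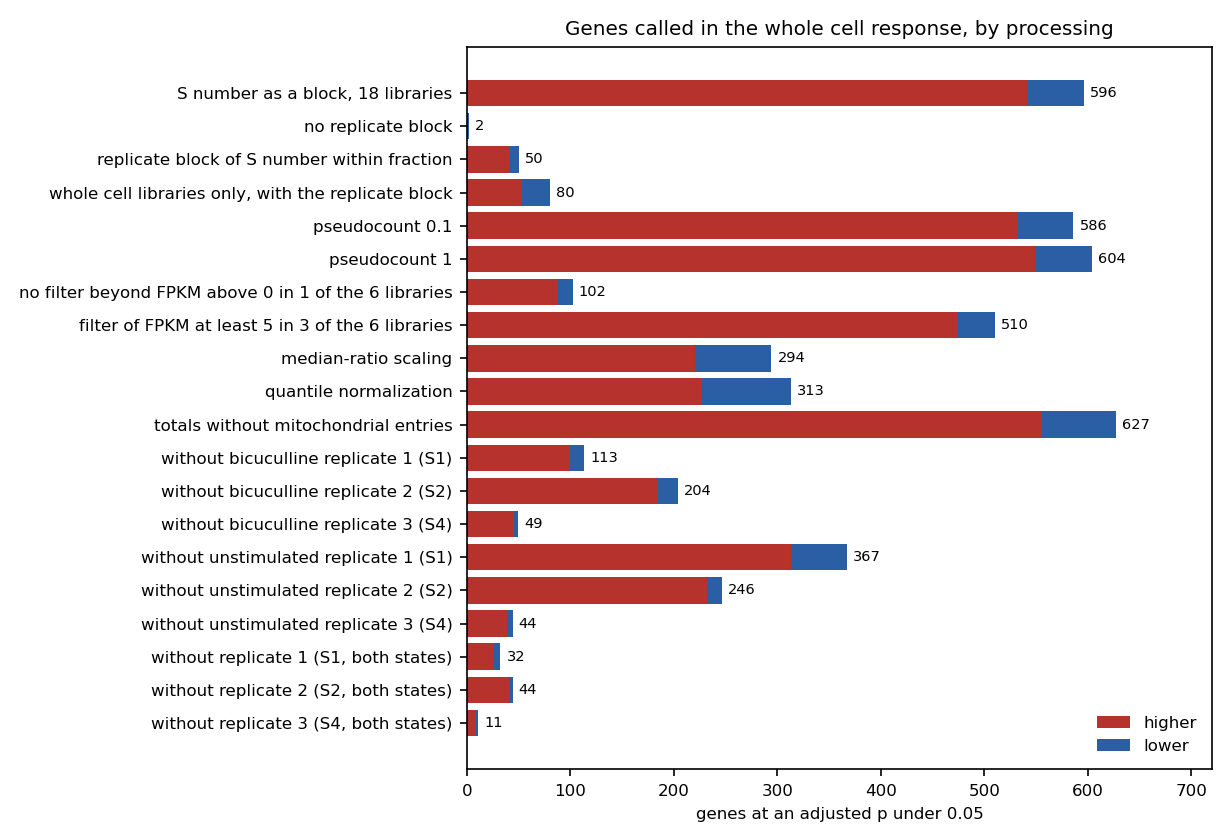
Number of genes called at an adjusted p under 0.05 in the whole cell response (x axis), higher in red and lower in blue, for each way of processing (y axis). The top bar is the fit reported here with 596 genes, and the count is 2 without the block and 11 without both S4 libraries.

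The largest rises among known activity genes were in the FOS family and its companions. Promoters of the 4 that rose most and have an entry in the RefSeq table (GRCm38.p6, the build also called mm10) are printed because CREB and SRF, the calcium-responsive factors named above, bind such regions. Each runs over the 250 bases before the RefSeq start site, 5′ to 3′ on the strand of the gene. The capitals mark TGACG, the core of the cAMP response element bound by CREB, or CGTCA where it lies on the other strand. The windows are chr3:145649986-145650235 (minus strand) for Cyr61, chr7:19310046-19310295 (minus) for Fosb, chr12:85473640-85473889 (plus) for Fos and chr19:4989972-4990221 (minus) for Npas4. The Npas4 window lies inside the authors' model of that gene (chr19:4984354-4990316), so the annotations differ on its start.
Cyr61: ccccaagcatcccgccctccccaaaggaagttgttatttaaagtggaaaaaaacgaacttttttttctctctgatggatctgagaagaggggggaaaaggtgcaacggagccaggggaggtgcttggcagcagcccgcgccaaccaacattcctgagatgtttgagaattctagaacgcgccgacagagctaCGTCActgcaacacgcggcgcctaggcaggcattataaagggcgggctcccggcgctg
Fosb: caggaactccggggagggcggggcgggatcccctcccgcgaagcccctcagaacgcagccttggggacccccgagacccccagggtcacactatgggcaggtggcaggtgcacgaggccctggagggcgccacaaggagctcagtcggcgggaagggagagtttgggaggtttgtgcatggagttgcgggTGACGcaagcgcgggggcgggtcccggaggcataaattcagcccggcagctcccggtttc
Fos: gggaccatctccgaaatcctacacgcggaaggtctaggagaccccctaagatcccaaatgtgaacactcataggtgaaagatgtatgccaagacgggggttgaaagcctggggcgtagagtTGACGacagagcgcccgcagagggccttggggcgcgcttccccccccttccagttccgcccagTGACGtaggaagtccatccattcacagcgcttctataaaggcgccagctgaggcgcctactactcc
Npas4: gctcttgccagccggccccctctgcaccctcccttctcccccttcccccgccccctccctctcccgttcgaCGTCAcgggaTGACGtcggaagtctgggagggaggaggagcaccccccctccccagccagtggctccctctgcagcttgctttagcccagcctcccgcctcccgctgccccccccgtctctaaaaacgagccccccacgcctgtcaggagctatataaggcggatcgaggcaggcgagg
In Cyr61 the core covers positions -58 to -54 from the start site, on the other strand, and in Fosb positions -60 to -56. Fos holds it at -129 to -125 and at -66 to -62. Npas4 holds it at -179 to -175 on the other strand and at -169 to -165. Searched on both strands, TGACG occurs in 17.8% of the 32851 promoters of the same length in the table. The full element TGACGTCA occurs in 1.55% of them, the AP-1 site TGANTCA in 6.75% and the serum response element (CArG box, searched by name) in 1.47%, and these letters are not in the 4 windows. The core lies within the full element, so the first search covers the second. A match describes the sequence only.

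Fos (chr12:85473889-85477273 in the authors' table), the partner of JUN proteins in the AP-1 transcription factor, was measured at 3.34, 2.25 and 3.49 FPKM in unstimulated S1, S2 and S4 and at 5.94, 4.10 and 6.22 after bicuculline. All 3 bicuculline libraries lay above all 3 unstimulated ones, and the pairs rose by 0.75, 0.74 and 0.75 on the log2 scale (log2 change 0.75 ± 0.06 SE, adjusted p = 4.1e-06). Its relative Fosb (chr7:19302696-19310045), which makes the long-lived variant deltaFosB, went from 0.407, 0.329 and 0.535 to 1.55, 1.04 and 1.63 FPKM (1.04 ± 0.09, adjusted p = 1.11e-05). These groups did not overlap either, but Fosb reached 1 FPKM only in the bicuculline libraries, so the filter itself fixed that separation. Fosl2, the third FOS family member that passed the test, stood at 2.01, 2.01 and 1.72 and then at 2.70, 2.30 and 2.64 FPKM (0.34 ± 0.09, adjusted p = 0.0359). Fos and Fosb were called in every paired fit and in all 6 fits without 1 library, and Fosl2 in none of the fits without 1 library.

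The neuron-specific factor Npas4 (chr19:4984354-4990316), which is known to be induced by calcium entry and to organise inhibitory synapses, went from 1.44, 1.07 and 1.60 to 2.53, 1.73 and 2.96 FPKM (log2 change 0.62 ± 0.08, adjusted p = 8.4e-04). The groups lay apart, with S2 lowest in both states. Egr1, a zinc finger factor and common marker of recent activity, stood at 4.26, 2.89 and 4.29 and then at 6.25, 3.89 and 5.83 FPKM (0.43 ± 0.06, adjusted p = 0.00323). Its groups overlapped because bicuculline S2 lay below unstimulated S1 and S4, and each pair rose. The nuclear receptor Nr4a1 moved from 4.57, 2.94 and 4.14 to 5.57, 4.28 and 5.73 FPKM (0.39 ± 0.07, adjusted p = 0.0107), also with overlapping groups. It kept its call in 3 of the 6 fits without 1 library.

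Per1, a core repressor of the circadian clock that is also induced by calcium and cAMP, rose from 3.63, 3.31 and 3.52 to 5.78, 4.53 and 5.75 FPKM (log2 change 0.55 ± 0.07, adjusted p = 5.59e-04), with the groups apart. Srf, which encodes the serum response factor itself, varied little between libraries and went from 3.80, 3.80 and 3.85 to 4.79, 4.97 and 4.71 FPKM (0.30 ± 0.07, adjusted p = 0.0307). The most abundant of the transcription factors was Egr3, at 19.7, 17.9 and 19.1 and then 24.0, 20.5 and 21.8 FPKM (0.22 ± 0.05, adjusted p = 0.0344). Srf, Egr3 and Fosl2 were not called with median-ratio scaling, where their adjusted p was 0.0954, 0.110 and 0.0615.

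Of the 29 immediate early transcription factors listed, 26 are in the table by symbol and 16 were tested. Of these 9 were higher, 0 lower, and their median log2 change was 0.32 beside 0.04 for all genes tested. The 7 that did not pass included Nr4a3, at 0.35 (adjusted p = 0.0567), and Nr4a2, at 0.21 (adjusted p = 0.316). Klf6 (-0.03), Klf10 (-0.08) and Crem (-0.02) had values near 0. The genes Jun, Junb and Jund have no entry by symbol. An entry without a symbol at chr4:95050234-95052171 overlaps an exon of Jun and of its antisense neighbour Junos in GENCODE M21. It was higher by 0.49 ± 0.10 (adjusted p = 0.0159) and was singled out after its value was seen.

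Effector genes of the early response encode proteins other than transcription factors, and 6 of the 14 tested passed. Cyr61, a secreted matrix protein that is also called Ccn1 (chr3:145646971-145649985), was at 0.596, 0.539 and 0.926 FPKM in unstimulated cells and at 1.95, 1.47 and 2.65 after bicuculline (log2 change 1.08 ± 0.12, adjusted p = 5.59e-04). It had the largest rise of all called genes. Cyr61 reached 1 FPKM only in the bicuculline libraries, so the filter itself fixed the rise and the separation of its groups. Arc (chr15:74669081-74672572), which drives the removal of AMPA receptors from synapses, went from 1.5, 0.978 and 1.93 to 2.58, 1.73 and 3.87 FPKM (0.69 ± 0.08, adjusted p = 6.12e-04). Its groups overlapped, since S2 was lowest and S4 highest in both states, and the pairs rose by 0.62, 0.59 and 0.85.

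Gadd45b, a stress-induced protein with a known part in activity-dependent DNA demethylation, went from 1.4, 0.863 and 1.37 to 2.05, 1.57 and 2.62 FPKM (log2 change 0.59 ± 0.10, adjusted p = 0.00614). The polo-like kinase Plk2, which lowers synaptic strength after raised activity, went from 3.11, 2.49 and 3.86 to 4.46, 3.58 and 5.47 FPKM (0.45 ± 0.08, adjusted p = 0.00846). Gadd45b groups were apart and Plk2 groups overlapped, although the Plk2 pairs rose by nearly equal amounts of 0.46, 0.45 and 0.45. Btg2, an antiproliferative factor that promotes deadenylation of mRNA, was higher by 0.45 (adjusted p = 0.0174), and Plk3 by 0.32 (adjusted p = 0.0420, and 0.0887 with median-ratio scaling).

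In all 14 effectors were tested of 26 listed. Of them 6 were higher and 0 lower, 14 of 14 had a change above 0, beside 8131 of all 13081 genes tested, and the median was 0.33. Among the 8 without a call, Homer1, whose short form loosens the postsynaptic scaffold, stood at 0.15 (adjusted p = 0.133) and Ppp1r15a, a phosphatase subunit of the stress response, at 0.35 (adjusted p = 0.128). Feedback inhibitors of the MAP kinase pathway had a median of 0.27, with 3 of 11 higher. These were Dusp8, a phosphatase of JNK and p38 (0.35, adjusted p = 0.0178), Errfi1, an inhibitor of the EGF receptor (0.39, adjusted p = 0.00857), and Trib2, a pseudokinase (0.27, adjusted p = 0.0119). With a block for each pair their adjusted p was 0.0638, 0.0614 and 0.0782, so that these 3 calls ended, while 5 early transcription factors and 4 effectors were called. Of the other lists, only the excitatory neuron markers had a member called higher with that block, which was 1 gene. The ERK phosphatases Dusp4 (0.27, adjusted p = 0.0622) and Dusp7 (0.27, adjusted p = 0.0583) did not pass.

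**Figure D2:**
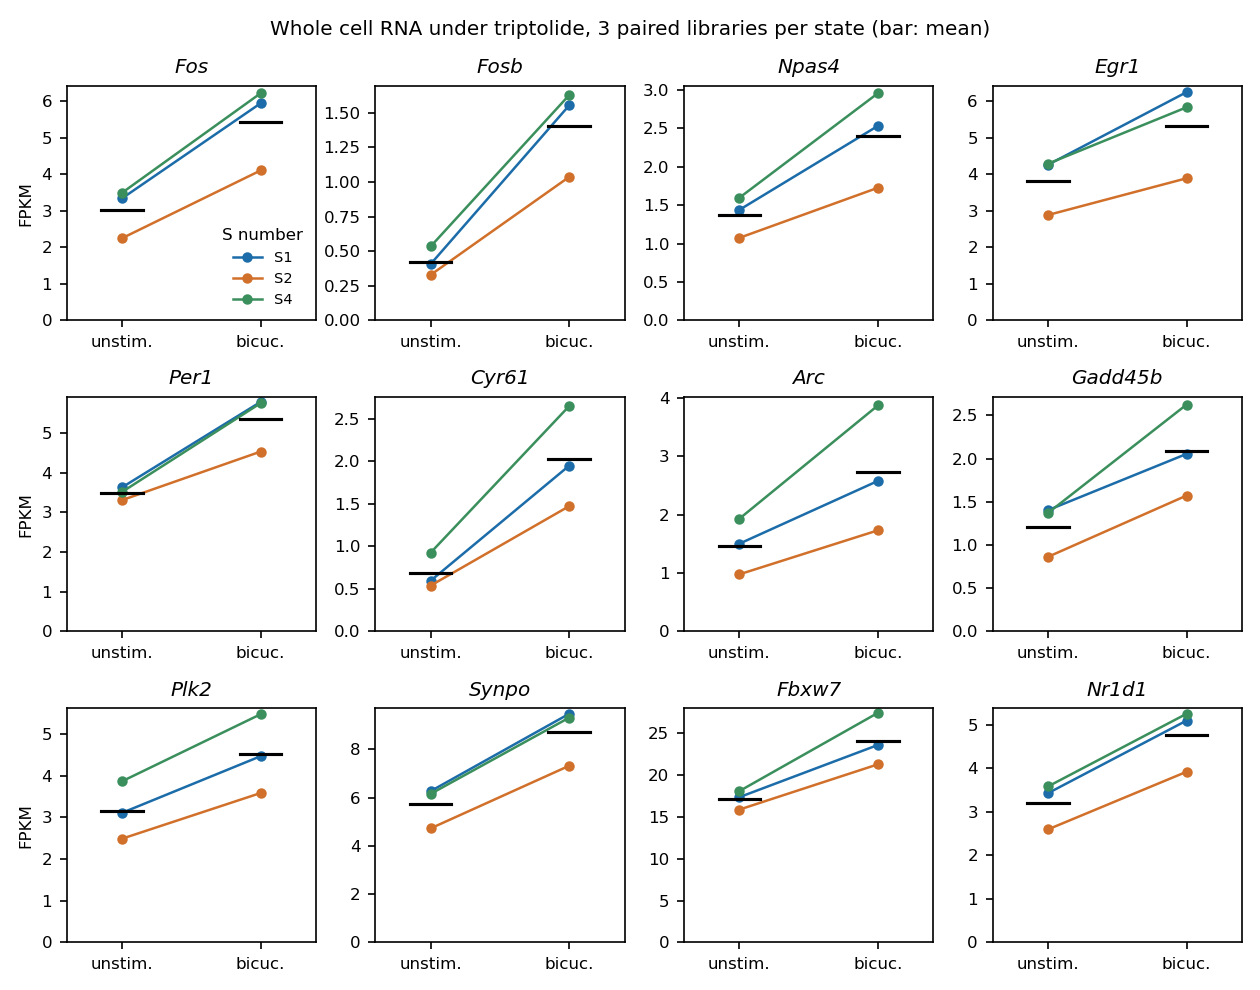
FPKM (y axes, each from 0) of 12 genes in unstimulated and bicuculline libraries, with a line for each S number and a bar for the mean of 3 libraries. Each of the 3 lines rises in every panel, from a mean of 3.03 to 5.42 FPKM for Fos and from 17.1 to 24.1 for Fbxw7. For Fosb and Cyr61 the rise follows from the filter, which they passed only through the bicuculline libraries.

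Of all 13081 genes tested by limma, 2766 had an unadjusted p under 0.05 (2252 higher, 514 lower), the background for the unadjusted list counts below. For the counts of called list members, above and below, the background is 4.14% higher and 0.413% lower. Delayed activity genes, which follow the early wave and include secreted peptides and growth factors, did not pass the limma test in any of 16 cases, with 5 at an unadjusted p under 0.05 (5 higher). Their median was 0.05 (0.00 with median-ratio scaling), with a range from -0.06 for Scg2 to 0.25 for Gpr22. Bdnf, the growth factor ligand of TrkB, was at 3.82, 3.36 and 4.73 FPKM in unstimulated cells and at 4.97, 3.26 and 4.39 after bicuculline. Only S1 was higher, and the groups overlapped (log2 change 0.07 ± 0.09, adjusted p = 0.728). The neuropeptide precursors Vgf (0.03) and Scg2 (-0.06) also had adjusted p values of 0.908 and 0.764.

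The receptor that bicuculline binds was represented by 12 subunit genes, and 0 of them passed by limma, with 2 at an unadjusted p under 0.05. Their changes ran from -0.07 (Gabrg1) to 0.15 (Gabrb2), and the median was 0.03 on the deposited scale and -0.02 with median-ratio scaling. Gabrb2, a beta subunit, was at 48.9, 51.1 and 55.8 and then at 53.6, 54.7 and 64.8 FPKM (adjusted p = 0.131), with overlapping groups. Of 8 genes for making and moving GABA, Gad2, a GABA-synthesising enzyme, passed with 0.18 ± 0.05 (adjusted p = 0.0437), from 32.8, 30.6 and 38.1 to 39.3, 33.9 and 42.2 FPKM. Its groups overlapped, and the adjusted p was 0.132 with median-ratio scaling.

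Synaptic genes mostly lay without a call, as did all genes tested, of which 4.56% were called. Glutamate receptor subunits were called in 0 of 21 cases (3 at an unadjusted p under 0.05, median 0.08), genes of vesicle release in 0 of 24 (6 unadjusted, median 0.07) and postsynaptic scaffolds in 1 of 21 (median 0.10). Voltage-gated channels had 3 of 31 higher and 0 lower (median 0.08). They were the potassium channel Kcnh7 (0.36, adjusted p = 0.0155), the calcium channel subunit Cacnb1 (0.32, adjusted p = 0.00622) and the P/Q-type calcium channel Cacna1a (0.18, adjusted p = 0.0402, and 0.191 with median-ratio scaling).

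Among genes with a mean of at least 5 FPKM, the 12 largest rises with all 3 pairs in 1 direction were of mixed function. The first was Synpo, an actin-binding protein of the spine apparatus, at 6.27, 4.73 and 6.16 and then 9.48, 7.32 and 9.32 FPKM (log2 change 0.57 ± 0.07, adjusted p = 5.59e-04). Fbxw7, which marks cyclin E, MYC and JUN proteins for degradation, went from 17.4, 15.9 and 18.1 to 23.6, 21.3 and 27.4 (0.48 ± 0.06, adjusted p = 6.96e-04). For both genes the groups were apart. Rnd1, a small GTPase that loosens the actin skeleton, went from 7.61, 7.63 and 7.23 to 10.4, 9.34 and 11.4 (0.44 ± 0.07, adjusted p = 0.00336), and St3gal1, a sialyltransferase, from 6.70, 7.78 and 7.24 to 8.94, 10.5 and 10 (0.41 ± 0.05, adjusted p = 5.59e-04). These 4 were called in all 3 paired fits.

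The other rises named here had an adjusted p of 0.0504 to 0.134 in the fit with a block for each pair. They were Nwd2 (0.48), Plcl2, an inactive phospholipase C relative (0.41), the adenylyl cyclase Adcy8 (0.40), the huntingtin gene Htt (0.40), the phosphatidate phosphatase Lpin2 (0.39), Fnbp4 (0.39) and the proprotein convertase Furin (0.38). Htt, for example, was at 6.91, 8.83 and 6.54 and then at 8.75, 11.1 and 9.97 FPKM, with overlapping groups and an adjusted p of 0.0155. Nwd2 and Fnbp4 were called in 0 of the 6 fits without 1 library and not with median-ratio scaling (adjusted p = 0.0513 and 0.0840).

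Genes outside this rule that were called in all 3 paired fits were chosen after their values were seen. Nr1d1, the circadian repressor REV-ERB alpha, went from 3.43, 2.60 and 3.58 to 5.10, 3.92 and 5.25 FPKM (0.51 ± 0.06, adjusted p = 5.59e-04). Its exons overlap those of Thra on the other strand, and the strand setting of the counting is not given in the sources used here. The others included Arl4d, a small GTPase (0.69), the zinc finger gene Zfp639 (0.56), Ankrd34a (0.52), the mitochondrial enzyme Mlycd (0.47), the transcription factor Ets2 (0.47), the adaptor Bcar1 (0.46), the deubiquitinase Usp2 (0.45) and the mitochondrial carrier Slc25a25 (0.45).

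**Figure D3:**
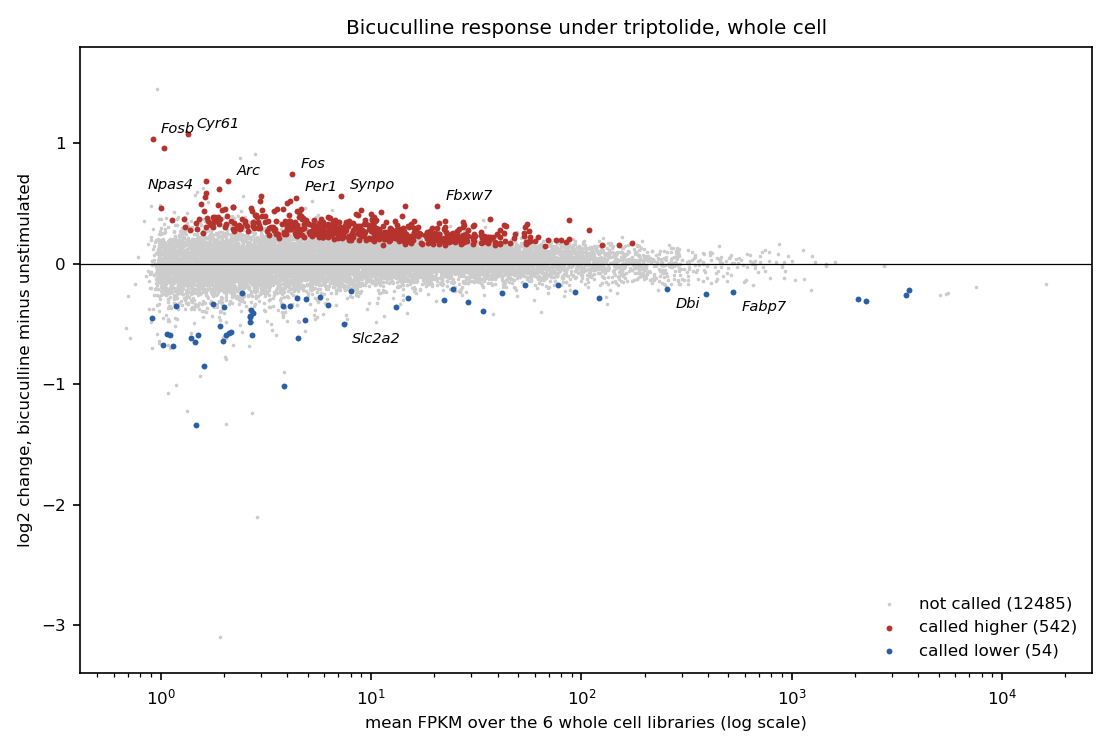
Log2 change after bicuculline (y axis) against the mean FPKM over the 6 whole cell libraries (x axis, log scale) for all 13081 genes, with called genes in red (542 higher) and blue (54 lower). The early genes lie at low levels and have the largest called rises, Cyr61 at 1.08 and Fosb at 1.04, while the called genes at the highest levels are lower ones. Cyr61 and Fosb passed the filter only through the bicuculline libraries.

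Factors that act on RNA were mostly without a call, as were all genes tested, of which 4.14% were called higher. Of 13 tested genes of nonsense-mediated decay, the pathway that removes mRNAs with early stop codons, 3 were higher and 0 lower (median 0.09). Upf1, its central helicase, went from 9.25, 8.89 and 8.85 to 11.8, 11.3 and 11.1 FPKM (0.33 ± 0.06, adjusted p = 0.00993), with the groups apart. Smg5 (0.19, adjusted p = 0.0458), which brings decay enzymes to phosphorylated UPF1, was called too, and was not with median-ratio scaling. Among 25 RNA decay and AU-rich element factors, Cnot1, the scaffold of the main deadenylase complex (0.23, adjusted p = 0.0151), and the AU-rich element binder Khsrp (0.19, adjusted p = 0.0309) were higher, Khsrp not with median-ratio scaling (adjusted p = 0.0802).

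CLK kinases and SR proteins, which set splice site choice and are known for transcripts that keep introns, had 0 of 20 called (3 at an unadjusted p under 0.05) and a median of -0.05. Clk1 was at 8.0, 9.96 and 13.4 and then at 8.79, 9.12 and 10.1 FPKM (log2 change -0.13 ± 0.18, adjusted p = 0.750), with S1 higher and the other two pairs lower. Of 40 spliceosome and hnRNP genes 2 were higher (Prpf8, 0.25, adjusted p = 0.0241, and Sf3a1, 0.16, adjusted p = 0.0475), and the median was 0.08. Neither was called with median-ratio scaling, where their adjusted p was 0.0553 and 0.166. Genes of microRNA silencing had 0 of 10 called and 3 at an unadjusted p under 0.05. Nuclear long noncoding RNAs had 0 of 6 called and 1 unadjusted, and Meg3 stood at 324, 554 and 437 and then 358, 458 and 344 FPKM (-0.16 ± 0.23, adjusted p = 0.754).

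Housekeeping groups and the target of the inhibitor had few calls, as had all genes tested (4.14% higher and 0.413% lower). RNA polymerase II and TFIIH subunits had 1 of 26 higher, which was Polr2a, the largest polymerase subunit, at 23.9, 25.3 and 25.8 and then 28.6, 30.1 and 30.4 FPKM (0.24 ± 0.04, adjusted p = 0.00336). Proteasome subunits had 1 of 31 higher (Psmd1, 0.15, adjusted p = 0.0372, and 0.131 with median-ratio scaling). Of 21 heat shock genes the cochaperones Dnajb1 (0.40, adjusted p = 0.0130) and Dnajb5 (0.21, adjusted p = 0.0410, and 0.0686 with median-ratio scaling) were higher. Among 20 p53 targets and apoptosis genes only Btg2, which is also an early effector, was called. Ribosomal protein genes had 1 of 71 lower, 3 of 71 with a change above 0 and a median of -0.08. Nuclear-encoded genes of oxidative phosphorylation had 0 of 63 called and a median of -0.06. By limma 10 of the 63 were lower at an unadjusted p under 0.05, beside 514 of all 13081 genes tested. Ribosomal protein genes have many processed pseudogenes, and the sources used here do not say how reads with several matches were counted.

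**Figure D4:**
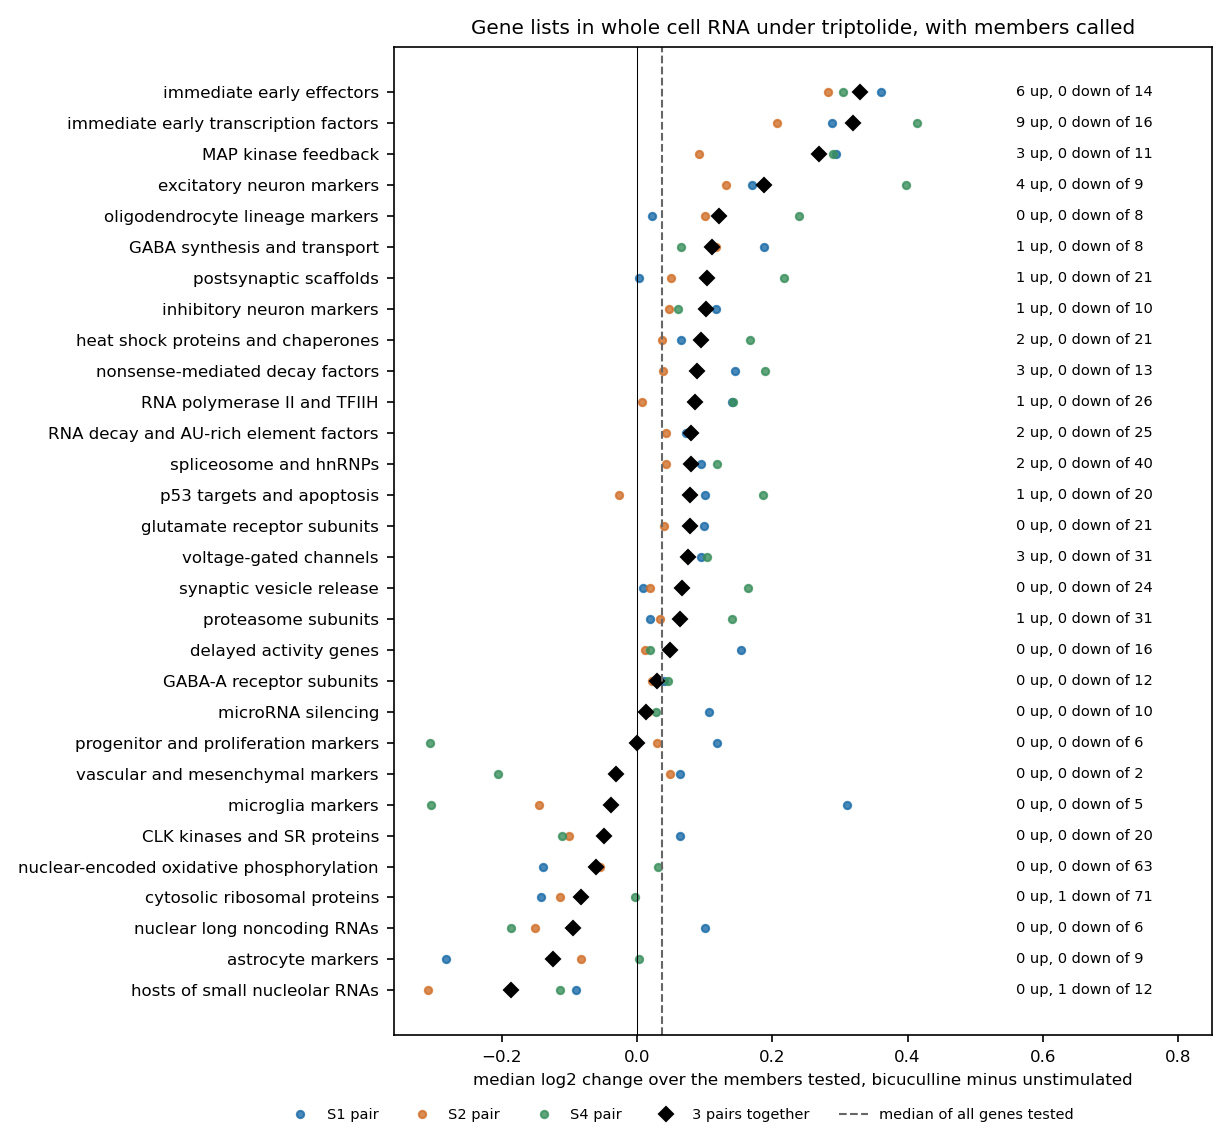
Median log2 change (x axis) over the tested members of 30 gene lists (y axis), with a black diamond for the 3 pairs together, colored points for each pair, a dashed line for all genes tested (0.04), and the number of members called at the right. Early effectors (0.33) and early transcription factors (0.32) lie at the top and hosts of small nucleolar RNAs (-0.19) at the bottom.

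Markers of cell types were compared because whole cell RNA of a mixed culture was measured, in which fewer cells of a type and less RNA per cell cannot be told apart. The cultures carried excitatory markers at a summed level of 702 to 845 FPKM in unstimulated and 725 to 842 in bicuculline libraries. Inhibitory markers summed to 434 to 487 and 444 to 481 FPKM, and astrocyte markers to 684 to 820 and 636 to 765. Of the microglia markers 5 of 10 and of the vascular markers 8 of 10 stayed under 1 FPKM in all 6 libraries, and the endothelial marker Cldn5 was at 0. The microglia sum ranged from 4.56 to 12.8 FPKM in unstimulated and from 3.88 to 16.4 in bicuculline libraries. Markers of the oligodendrocyte lineage summed to 86.0 to 109 and 85.7 to 112 FPKM, with 0 of 8 called, and progenitor markers had 0 of 6 called. In both lists 0 had an unadjusted p under 0.05.

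Excitatory neuron markers had 4 of 9 higher, 0 lower and a median of 0.19. They included the transcription factors Bcl11b, Neurod2 and Neurod6. Neurod2, which drives the differentiation of excitatory neurons, went from 2.42, 3.31 and 3.04 to 3.07, 3.96 and 4.17 FPKM (0.31 ± 0.07, adjusted p = 0.0259), with each pair higher and the groups overlapping. Its adjusted p was 0.0513 with median-ratio scaling. Bcl11b rose by 0.36 and Neurod6 by 0.30. The abundant markers Slc17a7, a vesicular glutamate transporter (0.02, adjusted p = 0.932), and Camk2a (-0.05, adjusted p = 0.773) were not called, and the summed level of the list changed by -0.16, -0.01 and 0.26 in the S1, S2 and S4 pairs. Astrocyte markers had 0 of 9 called, 1 at an unadjusted p under 0.05 and 0 of 9 above 0, with a median of -0.12, and their summed level changed by -0.27, -0.10 and 0.05. The part of these shifts in the gene changes was not tested.

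The 54 lower entries differed in kind from the higher ones. A gene symbol was absent in 37 of them, or 68.5%, against 14.0% of all tested entries and 9 of the 542 higher ones. Of the 37, 6 lie on the mitochondrial genome. Of the other 31, 16 overlap an exon of a GENCODE M21 gene, 10 lie within an intron and 5 overlap no gene. For all 1835 tested entries without a symbol these counts were 1270, 243 and 322. In unstimulated cells 26 of the 31 had a higher FPKM in the nucleus than in the cytosol, beside 1195 of the 1835. The median log2 ratio of nuclear to cytosolic FPKM was 1.36 for the 31, against 0.38 for all 1835 tested entries without a symbol, 0.01 for all entries tested and -0.18 for the higher ones. FPKM are scaled within each library, so this ratio orders genes and does not give absolute shares.

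All 8 lower entries called in the 3 paired fits lack a symbol, and they were chosen after their values were seen. The entry GSMG0018786, which overlaps an exon of the RNA-binding protein gene Celf4, went from 5.11, 5.02 and 5.92 to 2.61, 2.53 and 2.08 FPKM (-1.01 ± 0.12, adjusted p = 5.94e-04). The entry GSMG0026235 (chr3:158033940-158036409), over the unclassified transcript Gm43362, went from 2.09, 2.75 and 1.82 to 1.11, 1.17 and 0.741 FPKM (-0.85 ± 0.14, adjusted p = 0.00622). The entry GSMG0011888 (chr14:101894984-101896235), inside an intron of Lmo7, went from 1.12, 1.44 and 1.56 to 0.552, 0.670 and 0.789 FPKM (-0.67 ± 0.09, adjusted p = 0.00143). In all 3 the groups did not overlap. For GSMG0011888 the filter itself fixed this, since that entry reached 1 FPKM only in the unstimulated libraries. The same holds for GSMG0031488 and GSMG0065196 among the 8. One entry inside an intron, GSMG0007926 in Myt1l (chr12:29843960-29845875), went the other way, from 0.445, 0.517 and 0.677 to 1.49, 1.57 and 1.53 FPKM (0.96 ± 0.13, adjusted p = 0.00143). It reached 1 FPKM only in the bicuculline libraries, so its direction was fixed by the filter.

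Only 8 genes with a symbol that is not provisional, a mean of at least 5 FPKM and all 3 pairs in 1 direction were lower, and none of them passed in the fits with a block for each pair or with the 6 libraries alone. The first was Slc2a2, a glucose transporter, at 8.43, 9.98 and 7.56 and then 6.63, 7.86 and 3.96 FPKM (-0.50 ± 0.12, adjusted p = 0.0310). Fabp7, a fatty acid binding protein of radial glia and astrocytes, went from 607, 643 and 456 to 518, 566 and 371 (-0.24 ± 0.06, adjusted p = 0.0417). Dbi, an acyl-CoA binding protein that also acts on GABA-A receptors, went from 290, 275 and 260 to 250, 235 and 227 (-0.21 ± 0.06, adjusted p = 0.0440). The Dbi groups were apart, and those of Slc2a2 and Fabp7 overlapped.

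The rest of these were Fam13b (-0.36), the inhibin subunit Inha (-0.28), the adhesion molecule Vcam1 (-0.22), Dzip1 (-0.21) and the ribosomal protein gene Rps28 (-0.18). Exons of Fam13b, Dzip1, Vcam1 and Rps28 overlap those of a gene on the other strand. Among the genes above the same holds for Bdnf, Cacna1a, Cacnb1, Cnot1, Dusp8, Furin, Kcnh7, Khsrp, Meg3, Nwd2, Plk3, Psmd1, Slc25a25, Upf1, Usp2 and Zfp639, and their values are uncertain to the extent that reads were shared. Hosts of small nucleolar RNAs, whose introns carry guide RNAs and whose spliced RNAs are short-lived, had 1 of 12 lower, 2 of 12 above 0 and a median of -0.19. The called one was Snhg17, at 2.39, 2.14 and 2.38 and then 2.11, 1.46 and 1.53 FPKM (-0.36 ± 0.10, adjusted p = 0.0486), and its adjusted p was 0.0551 with median-ratio scaling.

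Entries on the mitochondrial genome, some of which overlap each other, shared 1 direction on the deposited scale. Of 13 tested 13 were below 0 and 6 were called, with a median log2 change of -0.24 (-0.15 with quantile normalization). The entry over the ribosomal RNA gene mt-Rnr1 went from 2618, 2291 and 2586 to 2144, 1859 and 2060 FPKM (-0.31 ± 0.05, adjusted p = 0.00724), with no overlap of the groups. With quantile normalization its change was -0.01, and the entry over mt-Rnr2 and mt-Nd1 stood at 0.05. That method gives entries of equal rank the same value in every library. For the most abundant entries, whose ranks hardly move, a change near 0 is therefore set by the method. The mitochondrial share of all FPKM was 9.91%, 9.20% and 12.5% in unstimulated S1, S2 and S4 and 8.77%, 8.72% and 9.66% after bicuculline. It was lower in 3 of 3 pairs, by a mean of 1.49 percentage points, and an exact paired permutation test gave p = 0.25 (two-sided), the smallest value 3 pairs allow. With totals taken without mitochondrial entries, an alternative chosen after seeing the data, 627 genes (4.79%) were called, of which 555 were among the 596. On that scale the median of the 13 mitochondrial entries was -0.25, and the entry over mt-Rnr1 stood at -0.32.

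Change also went with transcript length. Among protein-coding genes with a GENCODE length, the median log2 change was -0.07 for 165 genes under 1000 bases of exon, -0.00 for 944 from 1000 to 2000, 0.04 for 2969 from 2000 to 4000, 0.06 for 4178 from 4000 to 8000 and 0.06 for 2253 longer ones. In the S4 pair the shortest class was at 0.01, and in the S1 and S2 pairs at -0.12 and -0.07. With median-ratio scaling the classes ran from -0.11 to 0.02. The share of genes called higher was 0%, 1.59%, 3.81%, 6.15% and 5.86% in the same order. Lengths were available for 95.8% of the higher genes but 31.5% of the lower entries, so no length is given for the latter. Whether length accounts for any single change was not tested.

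The nuclear and cytosolic libraries of the same S numbers, sequenced separately and treated in the same way, gave a further reading of the whole cell calls. In the nucleus 1816 genes, or 13.9%, were called (1102 higher, 8.42%, and 714 lower, 5.46%), and in the cytosol 2260, or 17.3% (2145 higher, 16.4%, and 115 lower, 0.879%). Of the 542 genes higher in whole cells, 429 were also called higher in the cytosol, which is 79.2% of the whole cell and 20.0% of the cytosolic list. In the nucleus 327 were, or 60.3% and 29.7%. All 542 had a change above 0 in the cytosol and 527 in the nucleus, where the medians of all genes tested were 0.09 and -0.01. Of the 54 lower entries, 37 were also called lower in the nucleus (68.5% and 5.18%) and 12 in the cytosol (22.2% and 10.4%), and their median change was -0.36 in whole cells, -0.37 in the nucleus and -0.10 in the cytosol. The fractions may come from the same cultures, which the labels do not state. Their responses also come from 1 fit, in which each gene has the same SE in every fraction. These overlaps are therefore not independent replication.

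Values of single genes by fraction follow on the same log2 scale, and the difference between nucleus and cytosol was not tested here. Fos was at 0.75 in whole cells, 0.73 in the nucleus and 0.67 in the cytosol, and Fosb at 1.04, 1.18 and 0.90, all called. Npas4 was at 0.62 in whole cells and 0.84 in the cytosol (adjusted p = 3.4e-05) but at 0.11 in the nucleus (adjusted p = 0.405). Upf1 and Smg5 were called in the cytosol (0.35 and 0.34) and stood at 0.07 and -0.00 in the nucleus. Bdnf was at 0.30 in the nucleus (adjusted p = 0.0435) and -0.16 in the cytosol (adjusted p = 0.265), beside 0.07 in whole cells. GABA-A receptor subunits had 6 of 12 called higher in the nucleus and 0 of 12 in the cytosol, as glutamate receptor subunits had 10 of 21 and 0 of 21. Of the 71 ribosomal protein genes 52 were lower in the nucleus and 0 in the cytosol.

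The test of the difference itself passed for 1 gene, or 0.00764% of those tested. Reln, the secreted glycoprotein reelin of inhibitory and Cajal-Retzius neurons, was at 24.4, 27.5 and 28.4 FPKM in unstimulated whole cells and at 29.2, 31.3 and 28.7 after bicuculline. Its whole cell change of 0.15 ± 0.05 was not called (adjusted p = 0.0776), its nuclear change was 0.68 ± 0.05 (adjusted p = 1.19e-06), and the whole cell response was smaller than the nuclear one by 0.53 on the log2 scale (-0.53 ± 0.07, adjusted p = 0.00571). A further 912 genes had an unadjusted p under 0.05 for this difference. Between whole cells and cytosol 0 genes differed by limma, with 1303 at an unadjusted p under 0.05. For Npas4 the whole cell response was 0.52 above the nuclear one (adjusted p = 0.456), which did not pass.

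**Figure D5:**
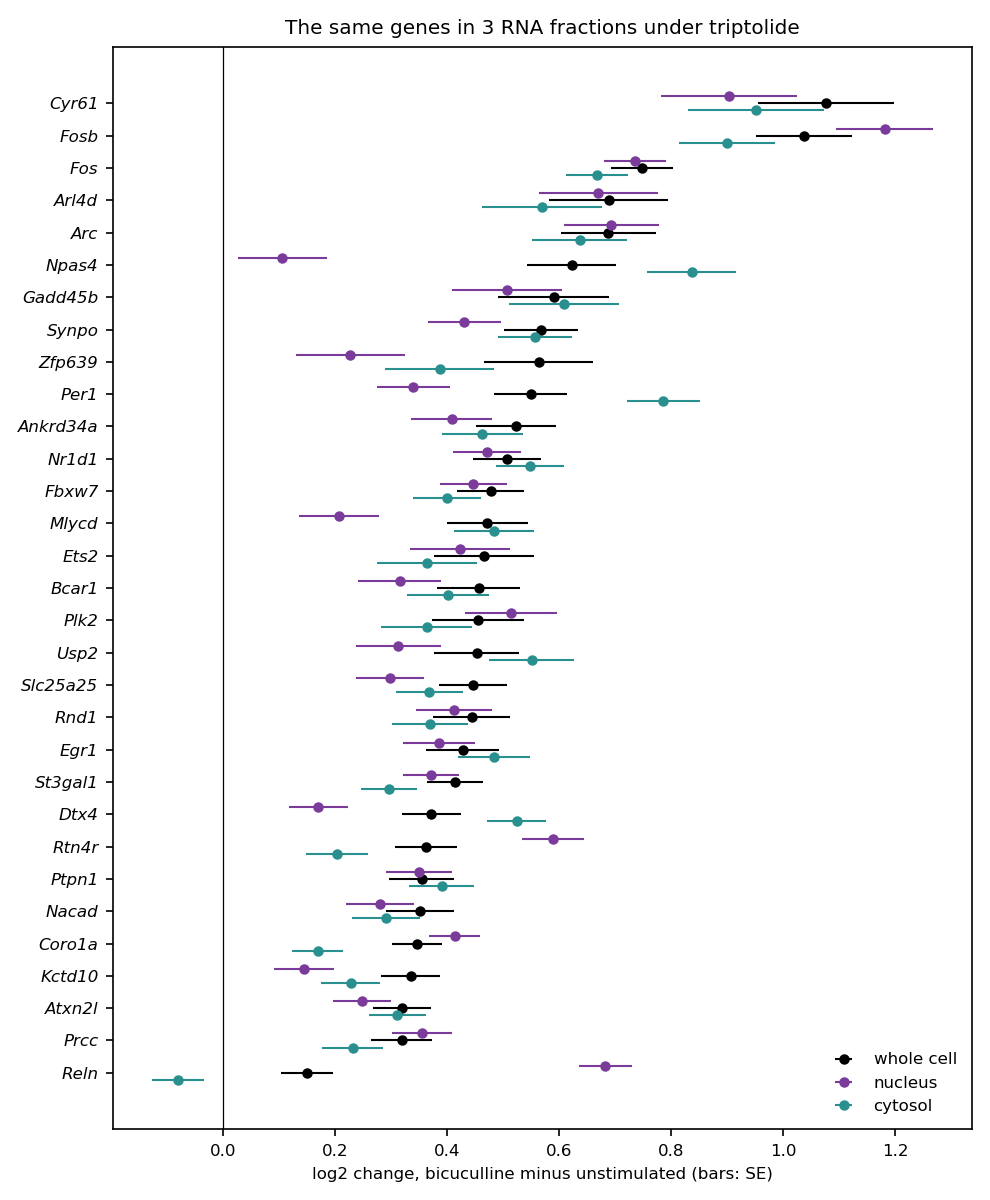
Log2 change after bicuculline (x axis, points with SE bars) in whole cell (black), nuclear (purple) and cytosolic RNA (teal) for 30 genes with a symbol that were called in 3 paired fits, and for Reln. For many genes the bars overlap, and for many others they do not. Per1 is at 0.34 in the nucleus and 0.79 in the cytosol, and Rtn4r at 0.59 and 0.20. Npas4 is at 0.11 in the nucleus and Reln at 0.68.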

How the data were processed

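Polyadenylated RNA was sequenced from a stranded kit, per the labels' protocols. The deposited table holds FPKM computed by the authors, with 1 value per entry and library, on gene models of mm10, per the file headers. The submitters' processing notes name STAR 2.4.0, SAMtools, Picard, FastQC and mm10. Which program counted the reads, with which strand option and with what treatment of reads with several matches, is not given in the sources used here. All 6 whole cell columns were matched to samples by the sample descriptions, and 0 columns of other values were left unmatched.

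The deposited FPKM entered each fit without rescaling as log2(FPKM + 0.5), a scale on which fold changes of low genes are understated. limma 3.58.1 (trend and robust variance) in R 4.3.3 fitted group means and the S number as a block to the 18 triptolide libraries (10 residual degrees of freedom), on the 13081 genes that reached 1 FPKM in 3 or more of the 6 whole cell libraries. Genes at an adjusted p under 0.05 (Benjamini-Hochberg, over all tested) were called. No count test was run, since the table holds no counts. Same-numbered libraries deviated together from their group means (Pearson r across genes 0.58, 0.60 and 0.46, against -0.35 to -0.17 for other pairs), so the numbers were taken to pair the samples. Within a state the 3 deviations of a gene sum to 0. The negative values thus follow in part from the positive ones and are no separate level for comparison. The depth is not stated. Between 59.1% and 65.1% of the low values of single-exon genes lay within 0.02 of a common step, against 1.9% to 3.2% at other depths, which would mean 70400000 to 87530000 fragments per library if a step is 0.5 fragment. Between 12898 and 13092 entries reached 1 FPKM per library.

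Members and the 30 gene lists were chosen with earlier results of these data known, so no list was tested as a set. Named genes are the 12 largest rises and up to 12 largest falls among those called at a mean of at least 5 FPKM, a symbol that is not provisional and all 3 pairs in 1 direction, besides called list members and 9 genes by name. Some genes that these rules reach are not reported here. Alternatives were other blocks, pseudocounts, filters and scalings, and leaving out libraries. Gene places and lengths came from GENCODE M21 and promoters from RefSeq. Summaries used pandas 2.3.3 and numpy 2.4.6 in Python 3.11.15, and figures matplotlib 3.10.9.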

Additional observations from a re-analysis of the deposited data

Results flagged for a closer look

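The bicuculline response of Reln differed between RNA fractions. It was 0.15 in whole cells and 0.68 in the nucleus, a difference of -0.53 ± 0.07 on the log2 scale (limma, adjusted p = 0.00571 over all genes tested), and -0.08 in the cytosol. Each whole cell pair was above 0, at 0.25, 0.18 and 0.01. Exons of Reln overlap those of Gm10475 on the other strand. Its cause was not tested.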

How the results depend on the processing

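The count of 596 genes (542 higher, 54 lower) became 2 (1 and 1) without the replicate block, 50 (41 and 9) with a replicate block for each pair within a fraction, and 80 (53 and 27) with the whole cell libraries alone, of which 68 were among the 596. It was 102 (88 and 14) with no filter on level, 294 (220 and 74) with median-ratio scaling and 313 (227 and 86) with quantile normalization. Leaving out 1 library gave 44 to 367 genes (39 to 313 higher, 4 to 54 lower). Leaving out both libraries of S1 gave 32 (26 and 6), of S2 44 (41 and 3) and of S4 11 (9 and 2). With pseudocounts of 0.1 and 1 it was 586 and 604, and with a minimum of 5 FPKM 510. The difference between whole cells and nucleus had 1 gene, 0 without the replicate block or with it for each pair, 2 with no filter or with median-ratio scaling, and 0 to 1 without libraries. That between whole cells and cytosol had 0, and 1 with the block for each pair or with no filter. The cause of these shifts was not tested, beyond the fewer samples or greater number of genes that some fits have. Of 89 single genes followed, 83 lost their call without the block, 44 with a block for each pair, 35 with the whole cell libraries alone and 18 with median-ratio scaling. Directions turned for 2 uncalled genes only. Without 1 library Bdnf ran from -0.021 (bicuculline S1) to 0.133 (bicuculline S4), at -0.006 without unstimulated S1 and -0.068 without both S1 libraries. Clk1 ran from -0.29 (unstimulated S1) to 0.027 (unstimulated S4), at 0.004 without both S4 libraries. The median SE of the log2 change was 0.07 with 3 pairs, and the smallest called change was 0.15.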
